A study of Mus musculus with 24 samples.

Results

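The serum response factor Srf and 8 genes of the actin cytoskeleton that are commonly placed under its control, Acta2, Actg2, Tagln, Cnn1, Myl9, Tpm1, Vcl and Flna, were followed over 24 Affymetrix arrays of MLO-Y4 cells. A probe set, the group of short probes that reads out 1 transcript, was taken for one of these genes when the platform annotation gave it that gene's symbol and no other. This left 14 of the 22690 probe sets on the array and 9 of the 12393 genes measured, and where a gene had several, the one with the highest mean stood for it. MLO-Y4 is an osteocyte-like mouse line, osteocytes being the cells embedded in bone matrix, and its background mixes the strains C57B1/6, BALB/c and DBA2. Cells grown on collagen-coated glass slides were held in parallel-plate chambers for 2 h, either under a flow that reversed at 1 Hz and exerted at most 10 dyn/cm2 of shear or, as sham, in chambers without flow. RNA was taken at once (0 h) or after a further 2, 8 or 24 h in fresh medium, for flow and sham alike. Each of the 8 combinations of treatment and time is labelled on 3 arrays. The study's methods describe triplicates of flowed and static cells for the 2 h time, without saying whether these were separate cultures, and each p-value below therefore reflects the spread of these arrays, which may be technical. All values are the log2 expression values that the authors deposited. Their precision is limited by the number of arrays, and in RNA of a whole culture fewer cells that use a gene and less RNA per cell cannot be told apart.

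SRF is a transcription factor that binds a short AT-rich element, the CArG box, and works with partners of more than 1 kind. The myocardin-related factors are held back by free actin monomers and enter the nucleus when monomers are taken up into filaments, so that actin assembly raises transcription of actin and of proteins that bind it. The ternary complex factors, such as ELK1, answer to growth factor signalling and drive early response genes such as Egr1 and Fos. Many of the genes described here are best known from smooth muscle, and some also serve stress fibres and adhesions in other cells that sense mechanical load.

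Promoter sequences close to the start of these genes were searched for exact matches to the element that SRF binds. RefSeq promoter sequences (build GRCm38.p6), each of 300 bases that begin 250 bases upstream of a transcription start site, were found for 7 of the 9 genes, all but Actg2 and Tagln. The CArG box was searched as its 10-base consensus on both strands, and since the consensus is its own reverse complement, a match on one strand is a match on the other. Srf held 2 boxes, at positions -82 and -62 from the start site, Myl9 held 1 at -161 and Vcl held 1 at -227. No match was found in these windows of Acta2, Cnn1, Tpm1 and Flna. Only exact matches to the consensus were taken, so a box that departs from it or lies outside the window was not sought. Among all 32851 promoters of the table, 1.63% held a box and 6 promoters held 2 or more. The stretches around the boxes lie at chr17:46556185-46556274 on the minus strand for Srf, at chr2:156775273-156775342 on the plus strand for Myl9 and at chr14:20929148-20929210 on the plus strand for Vcl. They are printed 5′ to 3′ with the boxes in capitals, because these are the members with a match, and Srf with Vcl and Myl9 with Acta2 ran together across the arrays.
Srf: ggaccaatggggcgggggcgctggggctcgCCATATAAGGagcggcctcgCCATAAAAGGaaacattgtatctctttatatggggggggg
Myl9: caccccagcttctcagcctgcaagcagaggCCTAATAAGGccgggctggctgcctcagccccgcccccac
Vcl: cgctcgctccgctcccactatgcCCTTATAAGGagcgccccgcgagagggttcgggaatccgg

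The members differed in how far above the dim range they were read. Acta2, which encodes the alpha-actin of smooth muscle, ranged from 9.65 to 10.92 over the 24 arrays, and Tpm1, Vcl and Flna lay above 10 on every array. Srf ranged from 7.75 to 9.05 and Myl9 from 6.83 to 8.57. Tagln ranged from 5.87 to 6.85 and reached 6, the value used here as the limit of dim signal, on 23 arrays. Actg2, the gamma-actin of enteric smooth muscle, ranged from 5.24 to 6.69 and reached 6 on 5 arrays. Cnn1, which encodes calponin, a regulator of smooth muscle contraction, lay between 4.13 and 4.51 and below 6 on all 24 arrays, so its differences describe dim signal. The Acta2 probe set is of a kind (suffix _s_at) whose probes can match transcripts of several genes, and actin transcripts are alike, so a share of its signal from other actins was not tested.

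Arrays of 1 label did not always resemble each other, which bears on every comparison below. The nearest array, by correlation over all genes, had the same label in 16 of 24 cases and lay in the same block of 8 successive columns of the deposited table in 22. The columns follow the labels in order, so 6 of the 8 groups lay in 1 block, while sham 2 h and flow 8 h each spanned 2 blocks. Flow and sham arrays of a time also lay at different places within the blocks, as given below. Both 0 h groups lay in the block of columns 1 to 8 and both 24 h groups in that of columns 17 to 24, so a change from 0 h to 24 h cannot be told apart from a difference between blocks. Whether every array carries the label of its own RNA cannot be checked with the values used here. Each flow minus sham difference below takes the labels as given, and an exchange of labels between arrays would change its size or its sign. Of 9 osteocyte marker genes 8 were measured and 5, Dmp1, Sost, Mepe, Fgf23 and Dkk1, were dim on all arrays, whereas Phex (7.73 to 9.17), Pdpn (12.20 to 12.77) and Gja1 (12.89 to 13.09) were not. Of the macrophage markers 3 of 4, of the endothelial markers 3 of 4 and of the skeletal muscle markers 2 of 3 were dim on all arrays, and the highest value of any of these was 6.21, for Ckm.

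**Figure D1:**
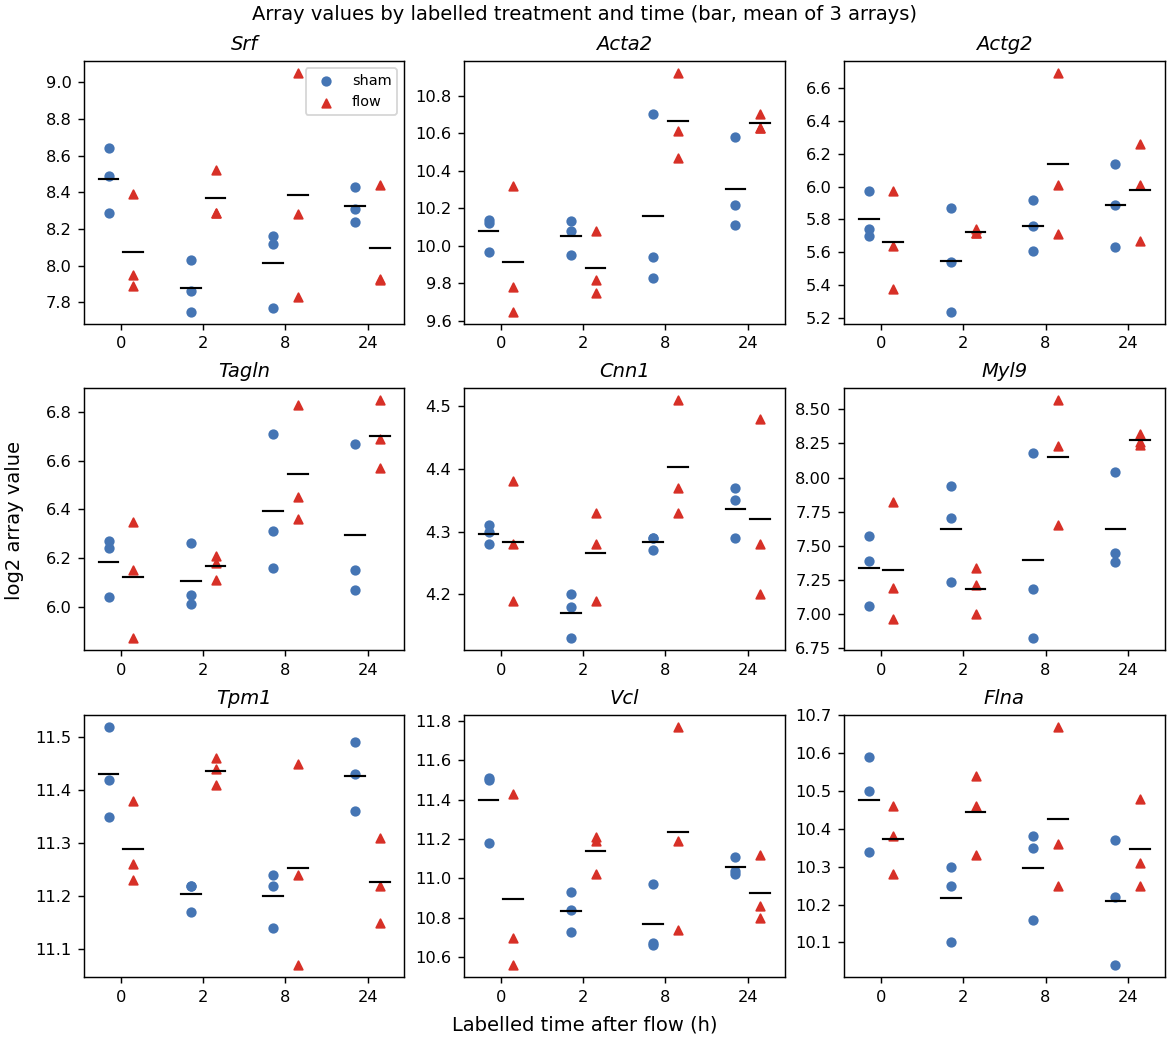
Log2 array values (vertical axes) of the 9 genes by labelled time after flow in hours (horizontal axes), with circles for sham arrays, triangles for flow arrays and a bar at the mean of 3 arrays. Flow and sham did not overlap at 2 h for Srf, Tpm1, Vcl and Flna, at 8 h for the dim Cnn1 and at 24 h for Acta2, Myl9 and Tpm1, with Tpm1 higher under flow at 2 h and lower at 24 h.

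At 0 h, directly after flow, every one of the 9 genes had a lower mean on the flow arrays than on the sham arrays, and none passed the test. Vcl had the largest difference, -0.50 on the log2 scale, and Srf the next, -0.40. A higher mean under flow was seen for 0 of 9, against 53.1% of all genes, and the median difference was -0.14 over the members and 0.00962 over all genes. Flow and sham arrays overlapped for all 9 genes, whereas 11.1% of all genes had all 3 flow arrays above and 7.92% had them below the 3 sham arrays. The genes share their arrays and many ran together, so such counts do not add up as independent observations. In limma, with p adjusted over all genes by Benjamini-Hochberg, 0 members and 0% of the 12393 genes passed an adjusted p of 0.05. When RNA quality, measured as the 3′ minus 5′ log2 difference of the Gapdh and of the beta-actin control probe sets, entered the model as covariates, Vcl was at -0.23, while Srf (0.0403), Actg2 (0.235) and Flna (0.0944) turned positive. Over all 24 arrays this measure ranged from -0.196 to -0.0743 for Gapdh and from 0.138 to 0.262 for beta-actin. Beta-actin is itself in the list of other actins and SRF targets below. Whether these measures follow RNA quality alone was not tested. With 1 array left out the sign turned in 4 of 6 fits for Myl9 and in 1 of 6 each for Tagln and Cnn1. At an unadjusted p under 0.05, 1 member was lower (Vcl) and 0 were higher, against 5.53% and 8.42% of all genes.

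At 2 h 7 of the 9 genes, Srf among them, had a higher mean on the flow arrays, and Acta2 and Myl9 had a lower one, again without passing the test. Srf differed by 0.49, Vcl by 0.30, Tpm1 by 0.24 and Flna by 0.22, and all 3 flow arrays lay above all 3 sham arrays for these 4 genes. Of all genes 9.16% stood apart upwards in this way and 9.27% downwards, against these 4 and 0 of 9 members. Acta2 differed by -0.17 and Myl9 by -0.44, while Actg2, Tagln and Cnn1 were at 0.18, 0.06 and 0.09. A higher mean under flow was seen for 50.5% of all genes, and the median difference of the members was 0.18. In limma 0 members and 0% of all genes were called at an adjusted p of 0.05, and at an unadjusted p under 0.05 2 members, Srf and Tpm1, were higher and 0 were lower, against 5.99% and 7.58% of all genes. The 3′ minus 5′ difference of beta-actin was lower on all 3 flow arrays at 2 h (difference -0.0762). With this measure and that of Gapdh as covariates the difference was 0.24 for Srf, 0.14 for Tpm1, 0.06 for Vcl and 0.12 for Flna, and -0.08 for Myl9, -0.01 for Acta2 and -0.19 for Actg2. With the block of columns as a covariate, an alternative chosen after seeing the data, Myl9 was at -0.05, Acta2 at -0.06 and Actg2 at -0.14. In the same fit Srf was at 0.33, Tpm1 at 0.22, Vcl at 0.21, Flna at 0.14, Tagln at 0.16 and Cnn1 at 0.13, with the sign they had without the covariate. Of the sham 2 h arrays only replicate 3 lies in the block of the flow 2 h arrays, and only sham 2 h spans the first and second blocks. These values are thus the flow mean minus that 1 sham array, and they do not test the effect of block.

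At 8 h all 9 genes had a higher mean under flow, against 52.6% of all genes, and the largest differences were those of Myl9 and Acta2. This count of 9 fell to 4 (Acta2, Myl9, Tagln and Cnn1) with the block of columns as a covariate, and to 7 with the RNA quality covariates. The sham 8 h arrays and flow 8 h replicate 1 lie in the second block, the other flow 8 h arrays in the third. Only flow 8 h spans these blocks, so the block fit compares its replicate 1 alone with the sham arrays. It does not test the effect of block at 8 h. The median was 0.37 over the members and 0.00889 over all genes. Myl9 differed by 0.76, Acta2 by 0.51, Vcl by 0.47, and Srf and Actg2 by 0.37 each. Several of these rested on flow 8 h replicate 3, without which Srf was at 0.04, Actg2 at 0.09 and Vcl at 0.20. With each of the 6 arrays left out in turn, the difference ranged from 0.04 to 0.65 for Srf, from 0.09 to 0.58 for Actg2, from 0.20 to 0.71 for Vcl, from 0.35 to 0.78 for Acta2 and from 0.47 to 1.15 for Myl9. The flow and sham arrays overlapped for every gene except the dim Cnn1, and 7.05% of all genes had their 3 flow arrays above their 3 sham arrays and 5.89% below. In limma 0 members and 0% of all genes were called, while at an unadjusted p under 0.05 3 members (Acta2, Myl9 and Vcl) were higher and 0 were lower, against 6.63% and 7.74% of all genes. For Gapdh this control measure lay higher on the 3 flow arrays of 8 h than on any sham array of that time (by 0.0376). With both control measures as covariates the difference was 0.94 for Myl9, 0.56 for Acta2, 0.30 for Vcl and 0.09 for Srf, and Tpm1 and Flna turned to -0.0059 and -0.00055. With the block of columns as a covariate, and so on flow 8 h replicate 1 alone, Srf turned to -0.18, Tpm1 to -0.13 and Actg2 to -0.06. In that fit Flna turned to -0.05 and Vcl to -0.03, while Myl9 and Acta2 were at 0.84 and 0.45.

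At 24 h the genes went apart. Myl9 was at 0.65, Tagln at 0.41 and Acta2 at 0.35, Flna, Actg2 and Cnn1 were at 0.14, 0.09 and -0.02, and Srf was at -0.23, Tpm1 at -0.20 and Vcl at -0.14. For Myl9 and Acta2 all 3 flow arrays lay above all 3 sham arrays, as for 13.5% of all genes, and for Tpm1 all 3 lay below, as for 6.29%. In all, 5 of 9 genes had a higher mean under flow, against 54.4% of all genes. In limma 0 members and 0% of all genes were called, and at an unadjusted p under 0.05 2 members (Myl9 and Tagln) were higher and 1 (Tpm1) was lower, against 9.8% and 5.7% of all genes. For beta-actin the control measure lay higher on the 3 flow arrays than on any sham array of that time (by 0.063). With both control measures as covariates Myl9 was at 0.34, Tagln at 0.33, Acta2 at 0.21 and Tpm1 at -0.11, and Srf and Vcl were at 0.0015 and 0.08.

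**Figure D2:**
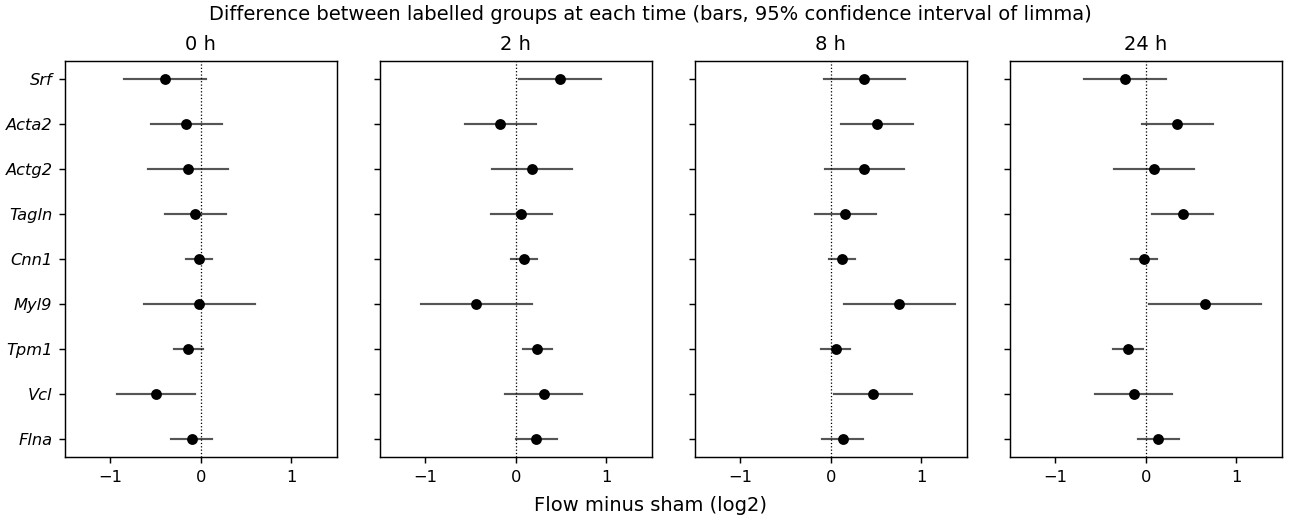
Flow minus sham difference in log2 units (horizontal axis) of the 9 genes (vertical axis) at 0, 2, 8 and 24 h in 4 panels, with points at the estimates and bars for the 95% confidence intervals of limma. All 9 points lie below 0 at 0 h and above 0 at 8 h, while at 24 h Myl9 (0.65) and Srf (-0.23) lie on opposite sides.

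Srf, the transcription factor itself, had its highest group mean on the arrays labelled sham 0 h and its lowest on those labelled sham 2 h. At 0 h it read 8.29, 8.64 and 8.49 on the sham arrays and 8.39, 7.89 and 7.95 on the flow arrays, so that 1 flow array lay among the sham arrays and the other 2 below them. At 2 h it read 7.75, 7.86 and 8.03 under sham and 8.29, 8.52 and 8.29 under flow, and the groups did not overlap. The difference at 2 h was 0.49 (standard error 0.21, 95% confidence interval 0.04 to 0.94, adjusted p = 0.346 in limma). At 8 h Srf read 8.16, 8.12 and 7.77 under sham and 7.83, 8.28 and 9.05 under flow. The last of these was the highest Srf value of all 24 arrays, and the flow group at 8 h held both values near the bottom and at the top of the range. At 24 h it read 8.31, 8.43 and 8.24 under sham and 8.44, 7.93 and 7.92 under flow, with 1 flow array level with the highest sham array and the other 2 below all of them. The order of group means ran from sham 0 h (8.47) through flow 8 h, flow 2 h, sham 24 h, flow 24 h, flow 0 h and sham 8 h to sham 2 h (7.88), and neighbours in this order overlapped in all 7 cases. The second Srf probe set, of the same kind as that of Acta2, had differences of -0.37, 0.01, 0.61 and -0.25 at the 4 times, so that the 2 h difference was seen with 1 of the 2 probe sets.

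Vcl, which encodes vinculin, a protein that links integrin adhesions to actin filaments, followed Srf closely. At 0 h it read 11.18, 11.50 and 11.51 on the sham arrays and 11.43, 10.70 and 10.56 on the flow arrays. The same flow array, replicate 1, lay among the sham arrays as for Srf. At 2 h it read 10.84, 10.73 and 10.93 under sham and 11.02, 11.21 and 11.19 under flow, with no overlap. At 8 h it read 10.97, 10.66 and 10.67 under sham and 10.74, 11.19 and 11.77 under flow. The 2 higher flow arrays exceeded every sham array of that time and the other lay among them. At 24 h it read 11.04, 11.11 and 11.02 under sham and 11.12, 10.80 and 10.86 under flow. The difference at 0 h was -0.50 (standard error 0.20, 95% confidence interval -0.92 to -0.07, adjusted p = 0.287 in limma), and at 8 h it was 0.47 (standard error 0.20, adjusted p = 0.315 in limma). Without flow 8 h replicate 1 the difference at 8 h was 0.71, with adjusted p = 0.042 in limma in a fit that called 672 of the 12393 genes, and without flow 8 h replicate 3 it was 0.20 (adjusted p = 0.859). The other Vcl probe set, which reached 6 on 1 array, had differences of -0.45, 0.30, 0.29 and -0.30 at the 4 times, of the same sign as the first at each time.

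Tpm1, which encodes a tropomyosin that lies along actin filaments and stabilises them, had the smallest p of the members at 2 h and opposite differences at 2 h and 24 h. At 2 h it read 11.17, 11.22 and 11.22 on the sham arrays and 11.41, 11.46 and 11.44 on the flow arrays. At 24 h it read 11.36, 11.49 and 11.43 under sham and 11.31, 11.15 and 11.22 under flow. The groups stood apart at both times, upwards at 2 h and downwards at 24 h. The flow and sham arrays of a time lay at different places of the blocks of columns, so treatment and place cannot be told apart. The difference was 0.24 at 2 h (standard error 0.08, adjusted p = 0.345 in limma) and -0.20 at 24 h (standard error 0.08, adjusted p = 0.29 in limma). At 0 h it read 11.35, 11.42 and 11.52 under sham and 11.38, 11.26 and 11.23 under flow, and at 8 h 11.24, 11.22 and 11.14 under sham and 11.07, 11.24 and 11.45 under flow. The flow arrays at 8 h thus covered most of the range of the gene, which ran from 11.07 to 11.52. The second Tpm1 probe set gave 0.23 at 2 h and -0.24 at 24 h, and the third, which was dim on all arrays, gave 0.04 and -0.24. Group means ran from flow 2 h (11.44), sham 0 h and sham 24 h down to sham 2 h and sham 8 h (11.20), with overlap between all 7 pairs of neighbours.

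Flna, which encodes filamin A, a crosslinker of actin filaments, stood apart between flow and sham at 2 h alone. Its 24 values ran from 10.04 to 10.67. At 2 h it read 10.25, 10.10 and 10.30 on the sham arrays and 10.33, 10.46 and 10.54 on the flow arrays, which did not overlap. The difference was 0.22 (standard error 0.11, 95% confidence interval -0.00093 to 0.45, adjusted p = 0.371 in limma). At 0, 8 and 24 h its differences were -0.10, 0.13 and 0.14, and flow and sham arrays overlapped.

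Acta2 had its highest group means on the flow arrays of 8 and 24 h. At 0 h it read 9.97, 10.12 and 10.14 on the sham arrays and 10.32, 9.78 and 9.65 on the flow arrays, and at 2 h 10.13, 10.08 and 9.95 under sham and 9.75, 10.08 and 9.82 under flow. At 8 h it read 9.94, 9.83 and 10.70 under sham and 10.61, 10.47 and 10.92 under flow. The third sham array lay among the flow arrays, apart from the other 2. At 24 h it read 10.22, 10.11 and 10.58 under sham and 10.70, 10.63 and 10.63 under flow, with no overlap. The difference was 0.51 at 8 h (standard error 0.19, 95% confidence interval 0.11 to 0.90, adjusted p = 0.257 in limma) and 0.35 at 24 h (standard error 0.19, adjusted p = 0.369 in limma). Without sham 8 h replicate 3 the difference at 8 h was 0.78, with adjusted p = 0.0231 in limma in a fit that called 301 of the 12393 genes. It was 0.35 without sham 8 h replicate 2 and 0.38 without flow 8 h replicate 3. The order of group means ran from flow 8 h (10.66) and flow 24 h through sham 24 h, sham 8 h, sham 0 h, sham 2 h and flow 0 h to flow 2 h (9.88), and among the 7 pairs of neighbours only flow 24 h and sham 24 h did not overlap. The other Acta2 probe set was dim on all arrays and its differences lay between -0.09 and 0.07.

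Myl9, which encodes the regulatory light chain of smooth muscle and non-muscle myosin II, had the widest spread of the members. At 0 h it read 7.06, 7.39 and 7.57 on the sham arrays and 7.82, 7.19 and 6.96 on the flow arrays. At 2 h it read 7.94, 7.70 and 7.23 under sham and 7.0, 7.34 and 7.21 under flow, a difference of -0.44 (standard error 0.29). The 2 groups overlapped through the third sham array. At 8 h it read 7.18, 6.82 and 8.18 under sham and 8.23, 7.65 and 8.57 under flow, and at 24 h 7.38, 7.45 and 8.04 under sham and 8.24, 8.26 and 8.32 under flow. As for Acta2, the third sham array at 8 h and at 24 h stood above the other 2. The difference was 0.76 at 8 h (standard error 0.29, adjusted p = 0.275 in limma) and 0.65 at 24 h (standard error 0.29, adjusted p = 0.306 in limma). Without sham 8 h replicate 3 it was 1.15 at 8 h, with adjusted p = 0.0332 in limma, in the same fit with 301 genes called as for Acta2. It was 0.47 without sham 8 h replicate 2 and 0.55 without flow 8 h replicate 3. Means ran from flow 24 h (8.275) and flow 8 h to flow 2 h (7.19), and all 7 pairs of neighbours overlapped.

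Tagln, which encodes transgelin, an actin-binding protein and an early marker of smooth muscle, was near the dim limit and ran with Acta2. At 0 and 2 h all its values lay between 5.87 and 6.35. At 8 h it read 6.31, 6.16 and 6.71 on the sham arrays and 6.45, 6.36 and 6.83 on the flow arrays, and at 24 h 6.07, 6.15 and 6.67 under sham and 6.85, 6.57 and 6.69 under flow. The third sham array of both times was the highest of its group, as for Acta2 and Myl9. The difference was 0.41 at 24 h (standard error 0.16, 95% confidence interval 0.07 to 0.74, adjusted p = 0.29 in limma) and 0.16 at 8 h.

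Actg2 and Cnn1, both low on these arrays, gave smaller or less regular differences. Actg2 differed by -0.14, 0.18, 0.37 and 0.09 at the 4 times, and its highest value, 6.69, was on flow 8 h replicate 3, the array on which Srf, Vcl, Acta2, Myl9 and Flna were also highest. Cnn1 differed by -0.02, 0.09, 0.12 and -0.02. At 8 h its flow arrays (4.33 to 4.51) lay above its sham arrays (4.27 to 4.29), all within the dim range.

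Over the 4 times in one test, the difference between flow and sham was not called for any member. The F-test of limma over the 4 times gave 5 members an unadjusted p under 0.05, Srf, Acta2, Myl9, Tpm1 and Vcl, against 23.3% of all genes, and 0 members and 0% of all genes were called at an adjusted p of 0.05. The lowest adjusted p was that of Tpm1, 0.138. Whether the difference changed between times was tested by the interaction of treatment and time. The same 5 genes had an unadjusted p under 0.05, against 27.3% of all genes, with adjusted p = 0.0807 for Tpm1, 0.108 for Vcl, 0.123 for Srf, 0.141 for Myl9 and 0.159 for Acta2 in limma, and 0% of all genes were called. Calls appeared when single arrays were left out, among many other genes. Without flow 8 h replicate 1, Srf, Tpm1 and Vcl passed both tests (adjusted p from 0.0113 to 0.0332 in limma), as did 1394 of the 12393 genes over the 4 times and 2045 in the interaction. Without sham 8 h replicate 3, Acta2 and Myl9 passed the interaction test (adjusted p = 0.0438 and 0.0479), with 495 genes called. Without flow 0 h replicate 1, Tpm1 and Vcl passed it (adjusted p = 0.039 and 0.0326), with 1027 genes called, and without sham 2 h replicate 3, Tpm1 did (adjusted p = 0.0467), with 1708 called.

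A change over time was tested within each treatment by the F-test of limma. On the sham arrays Tpm1, Vcl and Srf had an unadjusted p under 0.05 for a change over time, 3 of 9 against 21.1% of all genes, and 0 members were called at an adjusted p of 0.05 against 0.412% of all genes. Relative to sham 0 h, Srf was at -0.59 on sham 2 h and -0.46 on sham 8 h, and Vcl at -0.56 and -0.63. On the flow arrays Acta2, Myl9 and Tagln had an unadjusted p under 0.05, 3 of 9 against 17.1%, and 0 were called against 0.226%. The lowest adjusted p was that of Acta2, 0.0637, which was 0.0313 without flow 8 h replicate 1 (470 genes called), 0.0286 without flow 0 h replicate 1 (34 called) and 0.0399 with the mean of its probe sets (27 called). Relative to flow 0 h, Acta2 was at 0.75 on flow 8 h and 0.74 on flow 24 h, Myl9 at 0.83 and 0.96, and Tagln at 0.43 and 0.58. In the single comparisons with 0 h, 0 members were called at 2, 8 and 24 h, against 0%, 0.0161% and 0.339% of all genes on the sham arrays and 0%, 0% and 0.282% on the flow arrays. These comparisons over time share the 0 h arrays of their treatment and run along the blocks of columns. Whether the change over time differs between treatments is the interaction given above, which no member passed.

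The members fell into groups that ran together over the 24 arrays. Srf correlated with Vcl at r = 0.905 and with Tpm1 at r = 0.818, and Acta2 with Myl9 at r = 0.942 and with Tagln at r = 0.882 (Pearson r over 24 arrays, given as a description). Between the groups the values were low, with r = 0.155 for Srf and Acta2, r = 0.00842 for Srf and Myl9 and r = -0.211 for Tpm1 and Myl9. Actg2 lay between them, at r = 0.654 with Srf and r = 0.612 with Acta2, and Flna was nearer to Srf, at r = 0.601. The dim Cnn1 reached at most r = 0.442, with Acta2. The arrays share whatever acts on a whole array, which such correlations include. These correlations also include differences between the labelled groups, and r within labels was not computed.

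**Figure D3:**
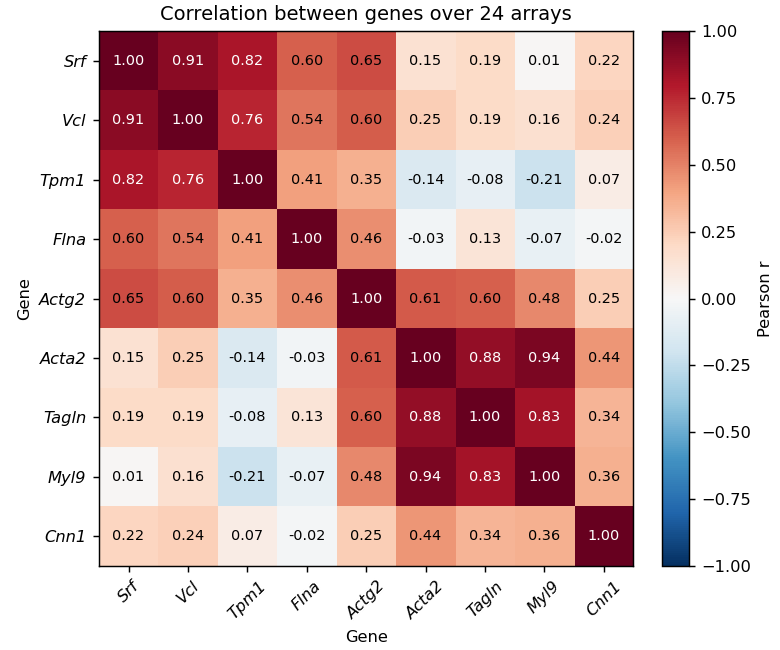
Pearson r between the log2 values of each pair of the 9 genes (both axes) over 24 arrays, as colour from blue (-1) to red (1) and as numbers. Srf, Vcl and Tpm1 form a group with r from 0.762 to 0.905, and Acta2, Tagln and Myl9 one with r from 0.831 to 0.942.

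The genes most like each member were taken from 7963 other genes that reached a log2 value of 6 in at least 3 arrays. Zyx, which encodes the adhesion and stress fibre protein zyxin, was closest to Srf (r = 0.918), followed by Prss23 and Mapkapk2 (both r = 0.897). Pdlim5 (r = 0.914), Fermt2, which encodes the integrin activator kindlin-2 (r = 0.91), and Prss23 (r = 0.89) were closest to Vcl, and Dclre1b (r = 0.882), Il15ra (r = 0.88) and Zyx (r = 0.867) to Tpm1. In the other group Acta1, the skeletal muscle alpha-actin, was among the 3 closest to Myl9 (r = 0.912), Acta2 (r = 0.833) and Tagln (r = 0.767), and Aplp2 was too (r = 0.824, 0.818 and 0.775). The remaining places were held by Cbr2 (r = 0.821) for Myl9, Sh3bgrl (r = 0.834) for Acta2 and Rcn1 (r = 0.779) for Tagln. Flna was closest to Tln1, which encodes talin (r = 0.845), Flnc, a second filamin (r = 0.836), and Cdca7 (r = 0.835). Actg2 was closest to Palld, which encodes the actin-bundling protein palladin (r = 0.796), Fhl2 (r = 0.77) and Hes1 (r = 0.76), and the dim Cnn1 to Tmem37, Iqsec1 and Morf4l2 (r from 0.689 to 0.78). The share of candidate genes with r over 0.7 was 4.4% for Srf, 3.6% for Vcl and 3.74% for Tpm1, and 0.515% for Acta2, 0.829% for Myl9 and 0.188% for Tagln.

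The deposited column order showed a pattern that repeated from block to block. In each block of 8 successive columns, Srf, Vcl and Tpm1 read higher in columns 2 to 4 of the block than in columns 7 and 8. Srf read 8.64, 8.29 and 9.05 in the second column of the 3 blocks, 8.39, 8.29 and 8.43 in the fourth, and 7.75, 7.77 and 7.93 in the seventh. Vcl read 11.51, 11.21 and 11.04 in the third columns and 10.73, 10.74 and 10.86 in the eighth, and Tpm1 11.42, 11.41 and 11.45 in the second and 11.17, 11.14 and 11.15 in the seventh. The profile over the 8 columns correlated between blocks at r from 0.628 to 0.789 for Srf, from 0.583 to 0.888 for Tpm1 and from 0.359 to 0.839 for Vcl (8 columns each, given as a description). Arrays at the same place of the blocks carry different labels. At every time the flow and sham arrays lay at different places. Flow lay in columns 4 to 6 and sham in 1 to 3 at 0 h, and flow in 2 to 4 and sham in 7, 8 and 1 at 2 h. At 8 h flow lay in columns 8, 1 and 2 and sham in 5 to 7, and at 24 h flow in 6 to 8 and sham in 3 to 5. A flow minus sham difference therefore cannot be told apart from one of place, and the block covariate does not adjust for place. The column order assigns no condition to an array. What lies behind this pattern, an exchange of labels included, was not tested.

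**Figure D4:**
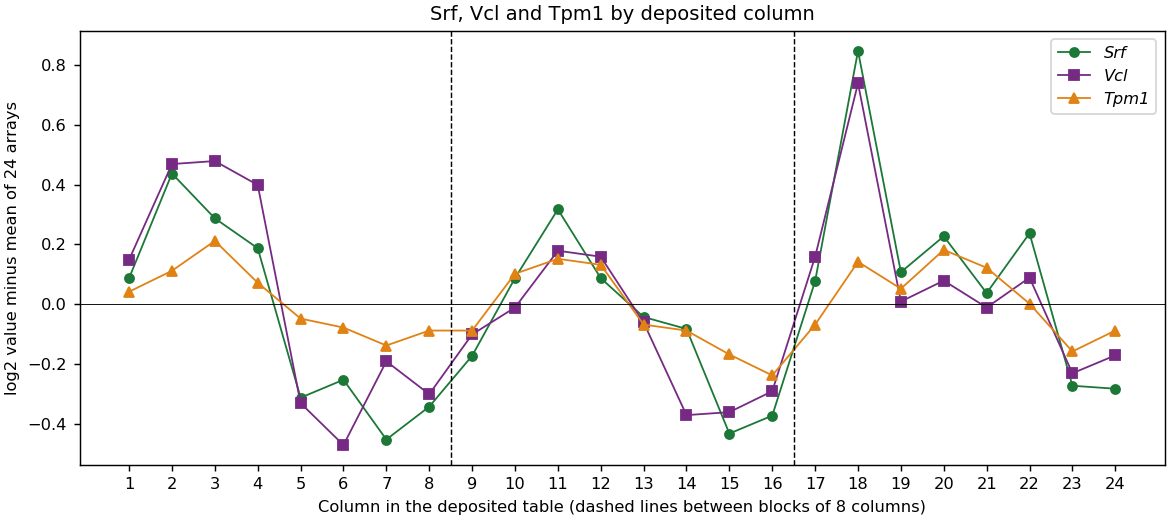
Log2 value minus the mean of 24 arrays (vertical axis) of Srf (circles), Vcl (squares) and Tpm1 (triangles) by column of the deposited table (horizontal axis), with dashed lines between blocks of 8 columns. In each block the genes lie higher in columns 2 to 4 of the block than in columns 7 and 8, with Srf at 7.75, 7.77 and 7.93 in the seventh columns.

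The spread among arrays was compared between the labels and the sets of 3 arrays that lie 8 columns apart. For Srf the SD was 0.288 within labels and 0.191 within these sets, for Vcl 0.274 and 0.218, for Tpm1 0.0907 and 0.067, and for Flna 0.137 and 0.132. The other members went the other way, with 0.252 within labels and 0.386 within sets for Acta2, 0.398 and 0.483 for Myl9, and 0.211 and 0.295 for Tagln. Thus 4 of 9 members had the smaller SD within sets, against 65.5% of all genes (8114 of 12393), and 7 of the 14 probe sets of the members did. By correlation over all genes, the nearest array lay 8 or 16 columns away in 2 of 24 cases and had the same label in 16. These are descriptions of how the values lie and not tests. The third block had the highest mean for every member except Flna. Block means were 10.03, 10.08 and 10.53 for Acta2, 7.45, 7.40 and 7.99 for Myl9 and 6.15, 6.27 and 6.525 for Tagln. They were 5.65, 5.76 and 6.04 for Actg2 and 11.32, 11.27 and 11.33 for Tpm1. Not all arrays of the third block were high. Columns 19 and 20, labelled sham 24 h replicates 1 and 2, read 10.22 and 10.11 for Acta2. They read 7.38 and 7.45 for Myl9 and 6.07 and 6.15 for Tagln. Values of Acta2, Myl9 and Tagln stepped up at columns 15 and 16, which are labelled sham 8 h replicate 3 and flow 8 h replicate 1. Under these different labels the 2 arrays read 10.70 and 10.61 for Acta2, 8.18 and 8.23 for Myl9, and 6.71 and 6.45 for Tagln. Block means of Srf were 8.16, 8.13 and 8.32.

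**Figure D5:**
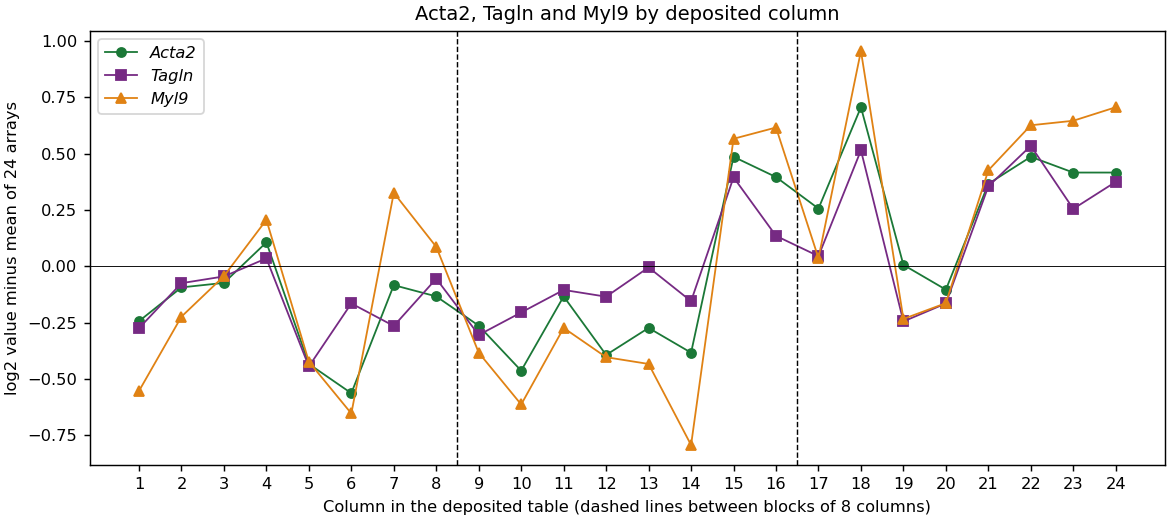
Log2 value minus the mean of 24 arrays (vertical axis) of Acta2 (circles), Tagln (squares) and Myl9 (triangles) by column of the deposited table (horizontal axis), with dashed lines between blocks of 8 columns. The 3 genes move together, and most of their values above the mean lie in column 15 and later columns, with block means of Acta2 at 10.03, 10.08 and 10.53.

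The wider pathway was read from lists of genes with related roles, in which no gene was called at any time. Of 30 measured genes of other actins and actin-binding SRF targets (33 listed), 7, 26, 23 and 7 had a higher mean under flow at 0, 2, 8 and 24 h, with medians of -0.09, 0.15, 0.05 and -0.06. At an unadjusted p under 0.05, 7 were lower at 0 h (5.53% of all genes), 7 were higher at 2 h (5.99%), 6 were higher at 8 h (6.63%) and 1 was higher at 24 h (9.8%), while 0 were higher at 0 h or lower at the other times. Lima1, a LIM protein that binds actin bundles, had differences of -0.73, 0.21, 0.85 and -0.41, and Zyx of -0.42, 0.44, 0.28 and -0.31 (adjusted p = 0.137 and 0.141 in the F-test of limma). These have the same order of signs as Srf and Vcl, which share all arrays with them. Flnc, a filamin of muscle, was at 0.47 at 2 h, and the dim Fhl1 at 0.49 at 8 h. CArG boxes were found by the same search in 9 of the 29 genes of this list with a promoter sequence (31%), Lima1, Fhl1, Fhl2, Filip1l, Cnn2, Myl6, Acta1, Actc1 and Actg1, against 3 of 7 members (42.9%). A gene counted here when any of its promoter sequences held a box, whereas the 1.63% given above is a share of single promoter sequences. The share over all genes was not computed. In the lists of cofactors and smooth muscle genes 0 genes had one.

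Early response genes, the targets that SRF shares with ternary complex factors, differed most at the late times. All 9 were measured, and 1, 5, 9 and 1 had a higher mean under flow at the 4 times, with medians of -0.31, 0.11, 0.58 and -0.76. At an unadjusted p under 0.05, 1 was lower at 0 h, 4 were higher at 8 h (6.63% of all genes) and 6 were lower at 24 h (5.7%), and 8 of the 9 passed that threshold in the F-test over the times, against 23.3% of all genes. Egr1 was at 1.30 at 8 h and -2.93 at 24 h (adjusted p = 0.131 in the F-test of limma), and Junb at 0.58 and -0.76 (adjusted p = 0.137). The dim Egr2 was at -2.19 at 24 h, and Ier2 at -0.60. Of the 6 genes of this list with a promoter sequence 1, Egr2, held a CArG box in the window searched.

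Differences lay between -0.30 and 0.24 for the cofactors and between -0.41 and 0.59 for the smooth muscle genes. Of 6 measured cofactors (8 listed), 4, 4, 6 and 3 had a higher mean under flow. Mrtfa, the myocardin-related factor that responds to actin monomers, was at -0.30, 0.07, 0.19 and -0.15, Elk3 at -0.27 and Elk1 at -0.26 at 2 h, and Myocd, the smooth muscle cofactor myocardin, was dim. Of 8 smooth muscle contractile genes, 5, 4, 6 and 5 did, against 53.1%, 50.5%, 52.6% and 54.4% of all genes. At an unadjusted p under 0.05 in limma, 1 cofactor was higher (8.42% of all genes) and 1 lower (5.53%) at 0 h. At 2 h 1 was lower (7.58%), and at 8 h 1 was higher (6.63%). Of the smooth muscle genes 1 was lower at 2 h (7.58%) and 2 were higher at 24 h (9.8%). At 8 h 2 of them were higher (6.63%) and 1 was lower (7.74%). Among them Mylk, the kinase that phosphorylates the product of Myl9, was at 0.01, -0.41, 0.43 and 0.59 (adjusted p = 0.141 in the F-test of limma), of the same sign as Myl9 at 2, 8 and 24 h. Cald1, which encodes caldesmon, was within 0.14 of 0 at all times. The smallest adjusted p of any gene named from these lists in the F-test was 0.131.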

How the data were processed

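The 24 arrays hold RNA of MLO-Y4 cells, with 3 arrays in each of the 8 groups that the labels define. The deposited values are on a log2 scale, and the processing notes of the submitters name RMA, which corrects the background, gives the arrays a common distribution and summarises the probes of a probe set, with a version not given in the sources used here. The values were used without further normalization, range from 2.02 to 14.11, have array medians from 6.71 to 6.80, and carry no counts. No column lacked a sample (0 left out).

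Of 22690 probe sets, 20380 carried 1 gene symbol in the platform annotation, 691 several and 1555 none, and 64 were controls. Symbols were checked by Entrez identifier against a RefSeq gene table, which left 20351 unchanged, while 29 without a match kept the symbol of the annotation. Of 12393 genes 4956 had more than 1 probe set, and the brightest on average was taken for each. limma 3.58.1 (R 4.3.3) was used to fit the 8 group means to the 24 arrays, and p-values were adjusted over all genes (Benjamini-Hochberg), with calls at an adjusted p under 0.05. The fit was tested on simulated data with known changes and noise drawn independently for each gene and array. That noise held no pattern along the columns, so the test does not show how the fit behaves on arrays with such a pattern. Alternatives were quantile normalization again, array weights, a replicate block, trend and robust moderation, removal of dim genes (those that reached 6 on fewer than 3 arrays), centring, the mean of all probe sets, the 6 arrays of a time alone, RNA quality covariates, an unadjusted threshold, each array left out in turn and, chosen after seeing the data, the block of 8 columns as a covariate.

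All 9 members were named. From each list of pathway genes up to 3 genes of lowest p in the F-test over the times and up to 2 of lowest p at 2 h could be named, and for each member the 3 genes with the highest r. The members and lists were chosen with earlier results of these data known, and so give no independent support. The results of 1 further list are not reported here.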

Additional observations from a re-analysis of the deposited data

Results flagged for a closer look

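Tpm1 was the member whose flow and sham arrays stood apart in opposite directions at different times. All 3 flow arrays lay above all 3 sham arrays at 2 h, with a log2 difference of 0.24, and all 3 lay below at 24 h, with a difference of -0.20. Of all genes, 9.16% stood apart upwards at 2 h and 6.29% downwards at 24 h. The share of all genes that stood apart in opposite directions at different times was not computed. At 2 h the flow arrays lay in columns 2 to 4 of a block of 8 columns and the sham arrays in columns 7, 8 and 1. At 24 h the flow arrays lay in columns 6 to 8 and the sham arrays in columns 3 to 5. Tpm1 read higher in columns 2 to 4 than in columns 7 and 8 of every block. Flow therefore cannot be told apart from place in the block here. The test of whether the difference changes between the times gave an adjusted p = 0.0807 in limma, so the change was not called, and with the RNA quality covariates the differences were 0.14 and -0.11.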

How the results depend on the processing

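No member was called in any comparison as reported, and the counts of called members moved under the alternatives named here. With array weights, 2, 3, 3 and 3 members were called at 0, 2, 8 and 24 h, 5 over the 4 times, 5 in the interaction, 4 for the change over time in sham and 7 for that in flow, while 2330, 2312, 3151 and 2361 of all genes were called at the 4 times instead of 0, 6024 over the 4 times and 5955 in the interaction. At an unadjusted p under 0.05 the counts were 1, 2, 3 and 3 at the 4 times, 5 over the times, 5 in the interaction, and 3 and 3 over time in sham and flow. With the mean of all probe sets 1 member, Acta2, was called for the change over time in flow. When each array was left out in turn, the count ranged from 0 to 2 at 8 h, 0 to 3 over the 4 times, 0 to 3 in the interaction and 0 to 1 for the change over time in flow, and it was 0 in the other comparisons. The arrays whose absence gave calls were flow 0 h replicate 1, sham 2 h replicate 3, sham 8 h replicate 3 and flow 8 h replicate 1. Of all genes, 51 and 28 were called for the change over time in sham and flow as reported, 1350 and 1211 with the column block, chosen after seeing the data, 4675 and 5490 with array weights, 18 and 29 with the RNA quality covariates, 14 to 410 with 1 sham array left out (410 without sham 2 h replicate 3) and 8 to 470 with 1 flow array left out (470 without flow 8 h replicate 1).

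With the RNA quality covariates the sign turned at 0 h for Srf (0.0403), Actg2 (0.235) and Flna (0.0944), at 2 h for Actg2 (-0.19), at 8 h for Tpm1 (-0.0059) and Flna (-0.00055) and at 24 h for Srf (0.0015) and Vcl (0.0833). With the column block it turned for Actg2 at 2 h (-0.14) and at 8 h for Srf (-0.18), Actg2 (-0.0581), Tpm1 (-0.13), Vcl (-0.0252) and Flna (-0.0524). For the RNA quality covariates the cause was not tested. In the block fit the 2 h differences rest on sham 2 h replicate 3 as the only sham array. The 8 h differences rest on flow 8 h replicate 1 as the only flow array. At 0 h and 24 h flow and sham lie in the same block, so this covariate could not move a difference there. With 1 array left out, differences that crossed 0 ranged from -0.17 to 0.0639 for Tagln, -0.0660 to 0.0309 for Cnn1 and -0.27 to 0.16 for Myl9 at 0 h, from -0.0444 to 0.15 for Tpm1 at 8 h, and from -0.0493 to 0.25 for Actg2 and -0.10 to 0.0423 for Cnn1 at 24 h. With the replicate number as a block, 0 members were called and no sign of the 36 differences turned, and same-numbered flow and sham arrays correlated in their deviations at -0.346 to 0.192, so equal numbers were not taken as pairs. The sham slides are described as paired controls, but the sources used here do not say that equal numbers mark a pair. Under the block 18 and 17 genes were called for the change over time in sham and flow. Trend and robust moderation, quantile normalization, centring, the mean of probe sets and the 6 arrays of a time alone kept the sign and side of the threshold of all 36 differences, as did the filter on dim genes for the 32 it left. The count of 4 members with the smaller SD within column sets was 4 under quantile normalization, centring and averaging of probe sets, the 3 alternatives run for it.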
